A study of Mus musculus with 9 samples.

Results

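The MHC class I presentation pathway and the immunoproteasome were followed in osteocyte-like MLO-Y4 cells through 10 genes. The genes were H2-K1 and H2-D1, the classical class I heavy chains; B2m, their light chain β2-microglobulin; Tap1 and Tap2, the subunits of the peptide transporter; Tapbp, which encodes the loading factor tapasin; Psmb8, Psmb9 and Psmb10, the inducible catalytic subunits of the proteasome; and Nlrc5, a transactivator of class I genes. The rule that chose them names their role and uses no measured value, although it was set with earlier results of these data known. They are 10 of the 56748 genes in the count table, and all 10 were among the 13812 genes that passed the filter on low counts.

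RNA sequencing was performed on 9 libraries of MLO-Y4 cells, a mouse line with osteocyte features that was derived from mice expressing SV40 large T antigen under the osteocalcin promoter. In every group the cells shared a transwell with primary articular chondrocytes from 5- to 6-day-old C57BL/6J mice, seeded on inserts with 1.0 µm pores. The control group (n = 3) was kept with unstimulated chondrocytes. In the 24h and 48h groups (n = 3 each), the chondrocytes had first received 10 ng/ml IL-1β for 6 h, and co-culture then lasted 24 h or 48 h. The culture time of the control group is not given in the labels, so stimulation and time in culture cannot be told apart in a comparison with control. The labels name the line of the 48h samples MLO-Y5, MLO-Y6 and MLO-Y7, while the protocols name MLO-Y4 for all. Nothing in the labels says that the 3 libraries of a group came from separate cultures, and p-values then measure the spread between these libraries, which may be technical.

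Class I molecules carry peptides from proteins made inside the cell to its surface, where CD8 T cells read them. The proteasome cuts the peptides, the transporter associated with antigen processing pumps them into the endoplasmic reticulum, and tapasin holds the transporter next to empty heavy chain and β2-microglobulin pairs until a peptide fits. Interferons and other inflammatory signals raise most of these genes in many cell types. They also raise the inducible proteasome subunits, which take the places of the constitutive catalytic subunits in newly built particles. Nlrc5 is recruited to class I promoters through the factors bound at the X and Y boxes. Osteocytes, like nearly all nucleated cells, express class I molecules.

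The 10 genes did not move as a block. At 48 h, H2-K1, H2-D1 and B2m, the parts of the surface molecule itself, were below control in every library. Tap2, Tapbp, Psmb9 and Nlrc5 were above control in every library, and Tap1, Psmb8 and Psmb10 had overlapping libraries. At 24 h no gene was higher than control, and the fitted difference was negative for each of the 10. From 24 h to 48 h, 7 genes rose and H2-K1, H2-D1 and B2m fell.

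Against control at 48 h, 4 of the 10 genes were higher and 3 were lower at an adjusted p under 0.05, in a comparison where 46.4% of all genes tested were called, 22% higher and 24.4% lower. The libraries of 48 h and control did not overlap for these 7, as they did not for 53.1% of all genes (25.7% above and 27.4% below). Their median log2 difference was 0.13, beside -0.0022 over all genes tested. Between 24 h and control, 3 of 10 were lower and 0 were higher, in a comparison where 6.15% were called, 3.25% higher and 2.9% lower. With 1 library left out, the number of the 10 genes called lower ranged from 2 to 6 (6 without control replicate 3), and over all genes 295 to 873 were called higher and 222 to 602 lower, beside 449 and 400. In this comparison, 8 of 10 were lower and 0 higher at an unadjusted p under 0.05, and DESeq2 also called 0 higher. The libraries of 24 h lay below all control libraries for 7 of the 10 and above them for 0, whereas 21.5% of all genes were without overlap, 11.2% below and 10.3% above, and the median log2 difference was -0.20. Between 48 h and 24 h, 7 of 10 were higher and 3 were lower, where 49.1% of all genes were called, 23.7% higher and 25.4% lower, and the median log2 difference was 0.47. None of the 10 overlapped between 48 h and 24 h, where 59.4% of all genes did not (29.1% above and 30.3% below). The 48 h culture thus stood apart over the transcriptome as a whole, and the counts of the 10 genes at 48 h are to be read against that. The 24 h and 48 h comparisons share their control libraries and are not independent of each other.

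**Figure D1:**
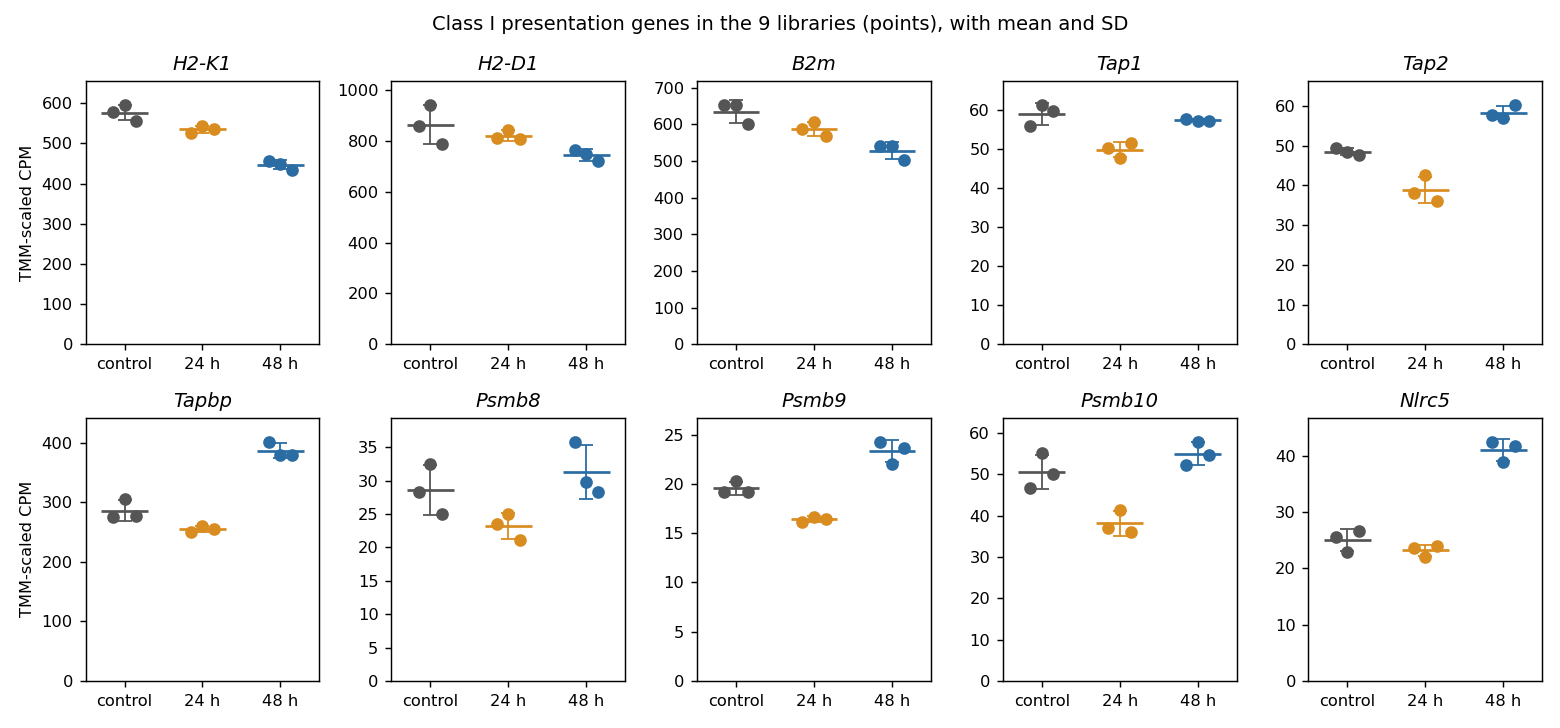
Depth-scaled read counts (CPM after TMM scaling, y axis from 0) of the 10 genes in each of the 9 libraries by group, with points for libraries, horizontal lines for group means and error bars for the SD (n = 3). H2-K1 steps down from 577 to 536 to 447 CPM on average, whereas Tap2, Tapbp and the proteasome subunits have their lowest means at 24 h and their highest at 48 h, and Nlrc5 lies at 25.1, 23.2 and 41.0 CPM.

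**Figure D2:**
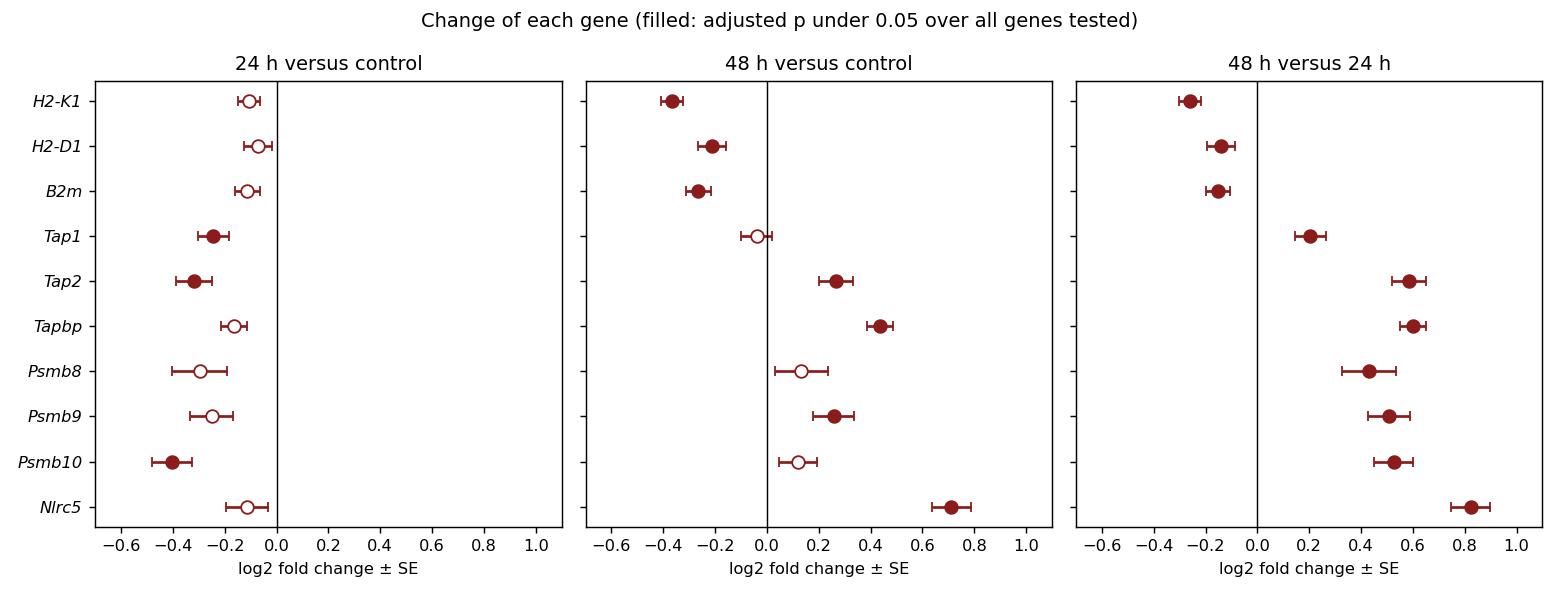
Log2 fold change (x axis) of each gene in the 3 comparisons, with error bars for the SE and filled points for an adjusted p under 0.05. All 10 points lie left of 0 at 24 h, and at 48 h the genes lie between -0.37 for H2-K1 and 0.71 for Nlrc5 against control.

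Scaled by the annotated gene length, the light chain was the most abundant transcript and the transactivator the least. That length was 860 bases for B2m, 2938 for H2-K1, 3381 for Psmb8 and 8493 for Nlrc5. The transcript forms present were not measured, so levels compared between genes depend on the annotation. B2m was at 738 ± 35.4 CPM per kb (mean ± SD, n = 3) in control, H2-D1 at 335 ± 29.9 and H2-K1 at 196 ± 6.61. Tapbp followed at 78.9 ± 4.73 CPM per kb and Psmb10 at 29.7 ± 2.44. Tap2, Tap1, Psmb8 and Psmb9 came next, between 12.8 and 5.34 CPM per kb, and Nlrc5 was last at 2.95 ± 0.224. The order was the same at 24 h and at 48 h. Neighbours in the order did not overlap between libraries in any group, except Tap1 and Psmb8 at 48 h, where Tap1 ranged from 10.4 to 10.5 CPM per kb and Psmb8 from 8.35 to 10.6. The light chain stood at 1.33 to 1.43 times the summed heavy chains H2-K1 and H2-D1 per length in all 9 libraries, with no separation of the groups.

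The genes for the surface molecule itself were lowest at 48 h. H2-K1 was at 578, 596 and 557 CPM in the control libraries, at 527, 544 and 536 CPM at 24 h and at 457, 450 and 435 CPM at 48 h. Every 48 h library was below every 24 h library, and every 24 h library was below every control library. At 48 h H2-K1 fell by 22.5% against control, a log2 difference of -0.37 (SE 0.04, adjusted p = 1.11e-06), and the 24 h difference of -0.11 (SE 0.04) had an adjusted p of 0.165. Between 24 h and 48 h, H2-K1 fell by 0.26 (SE 0.04, adjusted p = 5.17e-05). In bulk RNA, fewer cells with a transcript and less RNA per cell cannot be told apart, here and in all results that follow.

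H2-D1, the second classical heavy chain, was at 861, 942 and 788 CPM in control, 811, 845 and 810 CPM at 24 h and 767, 750.0 and 720.2 CPM at 48 h. Its 24 h libraries lay within the control range, and its 48 h libraries lay below both other groups. It fell by 0.21 at 48 h against control (SE 0.05, adjusted p = 0.00288), and its 24 h difference of -0.07 did not pass (adjusted p = 0.522). The fall of 0.14 between 24 h and 48 h (SE 0.05, adjusted p = 0.0343) was lost in 8 of 16 alternatives. Among these were the omission of control replicate 1 (adjusted p = 0.0542), of 24h replicate 1, 2 or 3 (0.0654, 0.143 and 0.0714) and of 48h replicate 2 or 3 (0.0745 and 0.164). H2-D1 fell less than H2-K1, and the ratio of H2-D1 to H2-K1 per length was 1.61 to 1.80 in control, 1.72 to 1.77 at 24 h and 1.89 to 1.91 at 48 h, so that the 48 h libraries were above all others.

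B2m stood at 653, 652 and 599.7 CPM in control, 586, 608 and 567 CPM at 24 h and 542, 541 and 502 CPM at 48 h. One 24 h library exceeded the lowest control library, and all 48 h libraries were the lowest. B2m fell by 16.8% at 48 h against control, a log2 difference of -0.26 (SE 0.05, adjusted p = 0.000165). Its difference at 24 h was -0.11 (SE 0.05, adjusted p = 0.199) and passed when control replicate 3 was left out (adjusted p = 0.0430). From 24 h to 48 h B2m fell by 0.15 (SE 0.05, adjusted p = 0.0131), a call that was lost when either 24h replicate 2 (adjusted p = 0.0819) or 48h replicate 3 (adjusted p = 0.108) was left out.

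The promoters of these 3 genes hold a known set of elements, and their sequences are shown because these genes fell together. Sequences are those of RefSeq, whose table lists promoters of the GRCm38.p6 build for 8 of the 10 genes, and Tap2 and Nlrc5 are not among them. Each was found once, letter for letter, in GRCm39, and the positions given are of GRCm39. Letters in capitals match one of 5 motifs on either strand: GAANNGAAA, the core of the interferon response element bound by IRF factors; TTCNNNGAA, the GAS element bound by STAT factors; GGGNNTTNC for NF-kB; TGACG, the core of the X2 box or CRE; and CCAAT, the Y box core bound by NF-Y. N stands for any base, and no 2 matches in the printed windows overlapped. Each line gives the 250 bases before the start annotated in RefSeq, written 5′ to 3′ on the strand of the gene. The gene model of H2-D1 in the deposited table starts further upstream, at chr17:35481706, so its window lies inside that model. The window of H2-K1 is chr17:34219308-34219557 on the minus strand, before the second of its starts in the table. That of H2-D1 is chr17:35481820-35482069 on the plus strand and that of B2m is chr2:121977918-121978167 on the plus strand.
H2-K1: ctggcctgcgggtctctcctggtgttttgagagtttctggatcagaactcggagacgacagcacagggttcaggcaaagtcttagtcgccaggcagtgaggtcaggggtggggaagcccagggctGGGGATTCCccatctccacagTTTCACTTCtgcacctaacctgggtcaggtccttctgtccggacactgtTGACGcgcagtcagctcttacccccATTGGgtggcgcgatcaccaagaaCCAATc
H2-D1: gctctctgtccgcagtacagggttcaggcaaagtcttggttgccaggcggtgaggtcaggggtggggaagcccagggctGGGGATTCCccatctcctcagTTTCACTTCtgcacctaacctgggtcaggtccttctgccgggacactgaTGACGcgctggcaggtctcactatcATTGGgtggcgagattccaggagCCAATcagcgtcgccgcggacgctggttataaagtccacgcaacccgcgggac
B2m: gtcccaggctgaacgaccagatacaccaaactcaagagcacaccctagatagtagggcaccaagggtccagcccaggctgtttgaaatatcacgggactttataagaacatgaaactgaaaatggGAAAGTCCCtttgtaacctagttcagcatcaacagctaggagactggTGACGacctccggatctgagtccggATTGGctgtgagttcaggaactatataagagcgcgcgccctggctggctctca

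Over the full window of 300 bases, which adds 50 bases after the start, the NF-kB letters were found in H2-K1, H2-D1 and B2m, 3 of the 8 genes with a promoter and 15.2% of the 32851 promoters in the table. GAANNGAAA was found in H2-K1 and H2-D1 (7.52% of all promoters). The B2m line holds gaaactgaaa, with a further base between the GAA and GAAA parts, which this pattern does not match. Other spacings of the IRF letters were not searched. TGACG was found in 5 of the 8 (20.8%) and CCAAT in 6 of the 8 (37.4%). In both counts Psmb9 and Tap1 enter separately with the same letters, since their windows overlap. A gapped end-to-end alignment of the full windows of H2-K1, here at the first of its starts, and H2-D1 gave 214 identical bases. That is 71.3% of the window length of 300 and not of the aligned part. The windows are offset, with GGGGATTCC beginning at -111 from the start in H2-K1 and at -171 in H2-D1. A match is a run of letters and not a measured site, and binding was not measured in these samples.

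Unlike H2-K1 and H2-D1, none of the other class I or class I-like genes tested was called lower at 48 h. Of 22 other class I or class I-like genes, 21 were in the table, without the classical H2-L, and 12 were tested. At 48 h, 5 of the 12 were higher than control and 0 were lower, with 6 higher and 0 lower at an unadjusted p under 0.05. Over all genes, 22% were called higher and 24.4% lower. The other 7 of the 12 were not called, and the log2 differences of the 12 ranged from -0.67 to 1.05. The median log2 difference was 0.20, beside -0.0022 over all genes. The largest was Fcgrt, the neonatal Fc receptor that carries IgG and albumin, at 86.9, 97.1 and 86.2 CPM in control, 78.0, 83.2 and 80.1 CPM at 24 h and 193, 190.0 and 177 CPM at 48 h, a log2 change of 1.05 (SE 0.06, adjusted p = 9.33e-11). H2-T23, which encodes Qa-1 and presents signal peptides to NK cell receptors, was at 60.3, 65.8 and 55.9 CPM in control and 121, 111 and 107 CPM at 48 h, a change of 0.90 (SE 0.07, adjusted p = 8.00e-09). Mr1, which presents vitamin B metabolites to MAIT cells, rose by 0.46 (SE 0.08, adjusted p = 0.000155). For all 3 the 48 h libraries lay above every other library. At 24 h, 0 of the 12 were called in either direction, beside 6.15% of all genes, with 2 lower and 0 higher at an unadjusted p under 0.05. Between 24 h and 48 h, 5 rose and 0 fell (0 fell at an unadjusted p under 0.05 too), led by Fcgrt (1.22), H2-T23 (1.06) and Mr1 (0.64). Over all genes, 23.7% rose and 25.4% fell. Several of these genes are near-identical copies, the counts of class I genes can be split between them, and the class I alleles of the line are not given in the sources used here. In the reference transcripts, 0.124% of the 150-base windows of H2-K1 and 0.643% of those of H2-D1 occurred in another gene on the same strand.

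The peptide transporter dipped at 24 h, and its subunits then differed. Tap1 was at 55.9, 61.3 and 59.9 CPM in control, 50.3, 47.7 and 51.5 CPM at 24 h and 57.7, 57.2 and 57.3 CPM at 48 h. The 24 h libraries were the lowest, and the 48 h libraries lay within the control range. Tap1 fell by 0.24 at 24 h (SE 0.06, adjusted p = 0.0204) and rose by 0.20 from 24 h to 48 h (SE 0.06, adjusted p = 0.00857). The difference between 48 h and control was -0.04 (SE 0.06, adjusted p = 0.626). The 24 h call was lost in 5 of 16 alternatives, among them the omission of control replicate 2 (adjusted p = 0.0587), 24h replicate 1 (0.0748) or 24h replicate 2 (0.0985).

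Tap2 was at 49.5, 48.4 and 47.6 CPM in control, 38.1, 42.5 and 36.0 CPM at 24 h and 57.6, 57.1 and 60.3 CPM at 48 h. The 3 groups did not overlap, with 24 h lowest and 48 h highest. Tap2 fell by 0.32 at 24 h (SE 0.07, adjusted p = 0.00697), a call lost without 24h replicate 3 (adjusted p = 0.0625), and was 0.27 above control at 48 h (SE 0.07, adjusted p = 0.00284). From 24 h to 48 h it rose by 0.58 (SE 0.07, adjusted p = 8.67e-07). The ratio of Tap1 to Tap2 per length was 0.781 to 0.875 in control, 0.775 to 0.988 at 24 h and 0.657 to 0.692 at 48 h, the 48 h libraries being the lowest.

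Tapbp was at 275, 306 and 278 CPM in control, 251, 261 and 255 CPM at 24 h and 402, 379.7 and 379.7 CPM at 48 h. Again no libraries of different groups overlapped, and the order of the groups was that of Tap2. At 48 h tapasin transcripts were 35.2% above control, a log2 change of 0.44 (SE 0.05, adjusted p = 1.04e-06), and they rose by 0.60 from 24 h to 48 h (SE 0.05, adjusted p = 1.59e-08). The 24 h difference of -0.16 (SE 0.05) had an adjusted p of 0.0636 and passed without control replicate 3 (adjusted p = 0.0307), with scaling by library size only (0.0359) and with DESeq2 (0.0490). The gene model of Tapbp shares 3422 bases with Zbtb22 on the same strand, which had 454 to 677 counts per library, beside at least 3609 for Tapbp, and 625 of the 6185 windows of 150 bases in its transcripts occurred in another gene on that strand.

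Psmb9, Tap1, Psmb8 and Tap2 lie side by side within 34.3 kb of chromosome 17, at chr17:34400961-34435295 (GRCm39) in the deposited table, and 7 of the 10 genes are on this chromosome. Psmb9 and Tap1 are read away from each other and overlap by 212 bases on opposite strands, and their RefSeq promoter windows share 275 of 300 bases (91.7%). Their common stretch is therefore shown once, in the direction of Tap1, at chr17:34406280-34406529 on the plus strand. Psmb8 is shown at chr17:34416919-34417168, plus strand, as the only one of the 8 promoters with the GAS letters (8.3% of all promoters). Tapbp, at chr17:34138202-34138451 on the plus strand, is shown as the promoter of the member with the smallest adjusted p for a rise from 24 h to 48 h. The windows of Psmb8 and Tapbp lie inside their deposited gene models, which start further upstream, at chr17:34416695 and chr17:34134873. The capitals mark the same 5 motifs as above.
Tap1: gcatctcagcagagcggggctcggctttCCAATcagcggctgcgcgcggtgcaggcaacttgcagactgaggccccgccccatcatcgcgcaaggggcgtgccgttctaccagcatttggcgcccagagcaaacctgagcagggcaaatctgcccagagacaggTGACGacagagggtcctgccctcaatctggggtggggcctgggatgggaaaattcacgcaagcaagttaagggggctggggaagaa
Psmb8: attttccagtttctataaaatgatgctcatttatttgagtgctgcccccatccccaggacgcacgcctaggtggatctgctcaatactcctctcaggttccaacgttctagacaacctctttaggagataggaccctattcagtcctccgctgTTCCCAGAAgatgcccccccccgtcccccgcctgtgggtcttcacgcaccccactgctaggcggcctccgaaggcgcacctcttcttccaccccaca
Tapbp: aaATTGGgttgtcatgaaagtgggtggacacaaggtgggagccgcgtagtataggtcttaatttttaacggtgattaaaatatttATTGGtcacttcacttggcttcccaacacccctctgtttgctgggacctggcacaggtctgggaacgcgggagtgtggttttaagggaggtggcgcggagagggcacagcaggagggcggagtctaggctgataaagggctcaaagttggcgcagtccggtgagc

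The Tap1 window held 1 match each to TGACG and CCAAT and the Tapbp window 2 matches to CCAAT, and neither held the IRF, GAS or NF-kB letters. The Psmb10 window held 0 matches. TGACG and CCAAT were found in promoters of genes that rose from 24 h to 48 h and of genes that fell. Among the genes that rose, TGACG occurred only in the stretch shared by Psmb9 and Tap1. The promoters of Tap2 and Nlrc5 were not read, and a part of these letters in the changes was not tested.

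The rest of the peptide trimming and loading machinery was more often lower than higher at 48 h, unlike Tap2 and Tapbp. Over all genes tested, 22% were higher and 24.4% lower than control at 48 h (median -0.0022). Of the 21 genes of this machinery tested, 1 was higher and 11 were lower there (median -0.15). The lower genes included Thop1, thimet oligopeptidase, which degrades cytosolic peptides (-0.72, SE 0.07, adjusted p = 1.59e-07), and Psme3, the PA28γ activator of the proteasome (-0.61, SE 0.05, adjusted p = 1.03e-08). They also included Lap3, an aminopeptidase (-0.53, SE 0.07, adjusted p = 5.30e-06). Npepps, the puromycin-sensitive aminopeptidase, was the higher gene (0.21, SE 0.05, adjusted p = 0.00136). At 24 h, 2 were higher and 2 were lower (median 0.04), beside 3.25% and 2.9% of all genes. The higher genes were the chaperones Hspa5 (0.20) and Calr (0.13). The lower genes were Tapbpl, a tapasin relative that edits peptides (-0.35, SE 0.07, adjusted p = 0.00368), and Psme1, an inducible PA28 subunit (-0.27, SE 0.06, adjusted p = 0.00593). Between 24 h and 48 h, 2 rose and 13 fell (median -0.20), beside 23.7% and 25.4% of all genes. The risers were again Psme1 (0.30, SE 0.06, adjusted p = 0.000281) and Tapbpl (0.22, SE 0.07, adjusted p = 0.0157). Against control at 48 h neither passed (0.02 for Psme1, adjusted p = 0.749, and -0.14 for Tapbpl, adjusted p = 0.114), and all 48 h libraries of Tapbpl lay below the control libraries. With 1 library left out, the number of these genes higher at 24 h was 4 without control replicate 3 and 1 without control replicate 1 or any 24h or 48h replicate, and the number lower was 1 without 24h replicate 3. The number higher at 48 h was 2 without control replicate 3 or 48h replicate 1 and with a replicate block, and the number that rose from 24 h to 48 h was 1 without 24h replicate 3 or 48h replicate 3.

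All 3 inducible proteasome subunits rose from 24 h to 48 h, while against control only Psmb10 passed at 24 h (lower) and only Psmb9 at 48 h (higher). Psmb8 (β5i) was at 28.3, 32.5 and 25.0 CPM in control, 23.5, 24.9 and 21.1 CPM at 24 h and 35.8, 29.7 and 28.2 CPM at 48 h. All 24 h libraries were below all control libraries by a narrow gap, and the 48 h libraries overlapped control. Psmb8 rose by 0.43 from 24 h to 48 h (SE 0.10, adjusted p = 0.00218). Its differences from control were -0.30 at 24 h (SE 0.11, adjusted p = 0.122) and 0.13 at 48 h (SE 0.10, adjusted p = 0.312). The 24 h difference passed without control replicate 3 (adjusted p = 0.0247) and with no filter on low counts (0.0441).

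Psmb9 (β1i) was at 19.1, 20.3 and 19.2 CPM in control, 16.1, 16.7 and 16.4 CPM at 24 h and 24.3, 22.1 and 23.6 CPM at 48 h, without overlap between groups. It was the member with the fewest reads, at least 233 per library. Psmb9 was 0.26 above control at 48 h (SE 0.08, adjusted p = 0.0134), which did not pass without 48h replicate 1 (adjusted p = 0.0590), and -0.25 at 24 h (SE 0.08, adjusted p = 0.0915). It rose by 0.51 between 24 h and 48 h (SE 0.08, adjusted p = 4.08e-05).

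Psmb10 (β2i) was at 46.8, 55.0 and 50.03 CPM in control, 37.0, 41.5 and 35.9 CPM at 24 h and 52.3, 57.9 and 54.6 CPM at 48 h. The 24 h libraries stood clear below all others. It fell by 24.5% at 24 h, a log2 difference of -0.40 (SE 0.08, adjusted p = 0.00224), more than any other of the 10 genes in that comparison. From 24 h to 48 h it rose by 0.53 (SE 0.08, adjusted p = 1.14e-05). The 48 h difference from control was 0.12 (SE 0.07, adjusted p = 0.192) and passed without control replicate 2 (adjusted p = 0.0367).

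The genes of the constitutive core particle were lower at 48 h. Of its 14 genes, 13 were lower than control at 48 h and 0 were higher (0 also at an unadjusted p under 0.05), with a median of -0.40. Over all genes tested, 24.4% were lower and 22% higher, with a median of -0.0022. At 24 h, 0 of 14 were called by edgeR in either direction, beside 6.15% of all genes, and 0 had an unadjusted p under 0.05 (median 0.03). Psmb3, a structural β subunit, decreased the most at 48 h (-0.79, SE 0.05, adjusted p = 7.08e-10). The catalytic subunit Psmb5 (β5) was at 72.6, 81.1 and 66.7 CPM in control, 73.0, 76.0 and 80.4 CPM at 24 h and 53.6, 52.9 and 50.8 CPM at 48 h, a change of -0.49 at 48 h (SE 0.07, adjusted p = 1.39e-05). Psmb6 (β1) and Psmb7 (β2) changed by -0.39 (SE 0.05, adjusted p = 9.17e-06) and -0.44 (SE 0.06, adjusted p = 1.38e-05). The 48 h libraries of all 3 lay below every other library. Psmb1 did not pass (-0.05, adjusted p = 0.480).

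Each inducible subunit replaces a particular constitutive one, and their ratio within a library needs no scaling between libraries. The size of a ratio depends on the annotated gene lengths, whereas its log2 differences between groups do not. These lengths were 3381 bases for Psmb8 and 899 for Psmb5, but 1705 for Psmb10 and 3421 for Psmb7. Psmb8 to Psmb5 per length was 0.103, 0.106 and 0.0995 in control, 0.0856, 0.0873 and 0.0697 at 24 h and 0.178, 0.149 and 0.148 at 48 h. The groups did not overlap, and the log2 ratio was 0.61 above control at 48 h and -0.36 at 24 h. Psmb9 to Psmb6 was 0.0739 ± 0.00170 (SD, n = 3) in control, 0.0625 ± 0.00119 at 24 h and 0.115 ± 0.00462 at 48 h, with log2 differences from control of -0.24 at 24 h and 0.64 at 48 h. Psmb10 to Psmb7 was 1.27 ± 0.0783, 0.988 ± 0.0706 and 1.87 ± 0.0764, with differences of -0.36 and 0.56. Between 24 h and 48 h the log2 ratios differed by 0.97, 0.88 and 0.92. In all 9 comparisons the groups were separate, and each exact two-sided permutation test gave p = 0.1 (0.1 after Benjamini-Hochberg adjustment over the 9), the smallest value that 3 against 3 libraries can give. At 48 h the log2 level of Psmb5 fell by 0.49, of Psmb6 by 0.39 and of Psmb7 by 0.44 against control, while the inducible subunits differed from control by 0.13 for Psmb8 and 0.12 for Psmb10, which did not pass, and by 0.26 for Psmb9. The larger part of each 48 h difference from control therefore lies in the constitutive subunit. At 24 h the constitutive subunits did not pass, with log2 differences of 0.06, -0.01 and -0.05. RNA does not show how many particles hold either subunit.

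**Figure D3:**
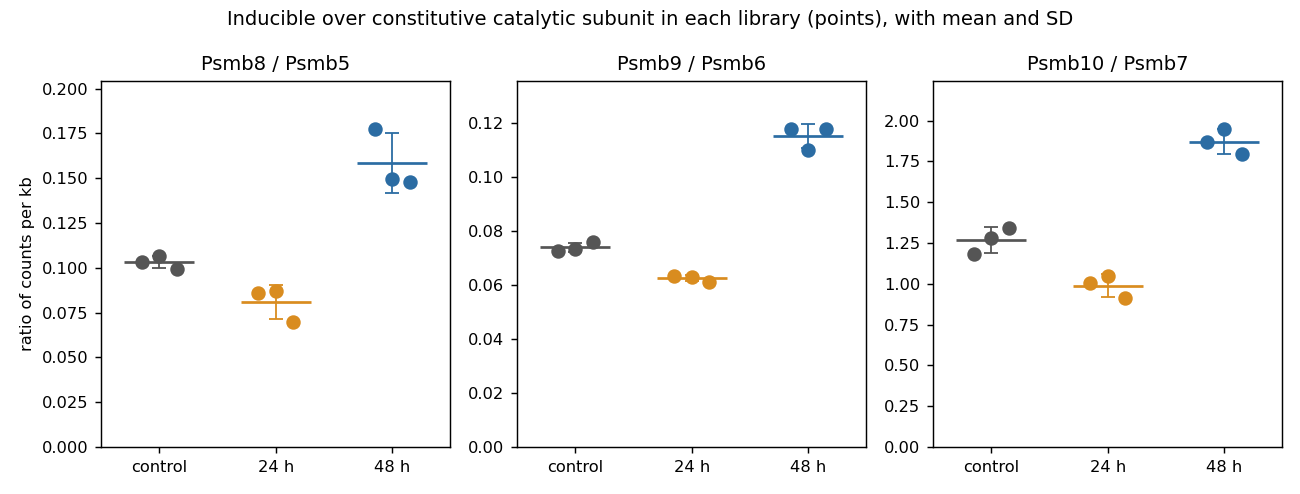
Ratio of counts per kb (y axis from 0, no unit) of each inducible subunit to the constitutive subunit it replaces, in each of the 9 libraries, with lines for means and error bars for the SD (n = 3). In all 3 pairs the 24 h libraries are lowest and the 48 h libraries highest, as with Psmb9 to Psmb6 at 0.0739, 0.0625 and 0.115 on average.

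Nlrc5, the class I transactivator, changed the most of the 10 genes at 48 h. It was at 25.5, 22.98 and 26.7 CPM in control, 23.6, 22.1 and 23.9 CPM at 24 h and 42.5, 38.9 and 41.7 CPM at 48 h. The control and 24 h libraries overlapped, and the 48 h libraries stood clear above both. Nlrc5 was 63.6% above control at 48 h, a log2 change of 0.71 (SE 0.08, adjusted p = 3.98e-07), and rose by 0.82 from 24 h to 48 h (SE 0.08, adjusted p = 5.33e-08). Its 24 h difference was -0.11 (SE 0.08, adjusted p = 0.499). The rise of Nlrc5 was thus seen beside lower H2-K1, H2-D1 and B2m in the same libraries. A long noncoding gene, 9330175E14Rik, overlaps it by 748 bases on the opposite strand, with 18 to 93 counts per library beside at least 281 for Nlrc5.

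Other regulators of class I genes and interferon signalling rose more often than they fell at 48 h. Of 30 genes on this list, 27 were tested, of which 13 were higher and 3 were lower than control at 48 h (median 0.13). Over all genes tested, 22% were higher and 24.4% lower in that comparison (median -0.0022). Stat2, part of the type I interferon response complex, was at 81.9, 90.8 and 90.9 CPM in control, 101, 93.6 and 92.2 CPM at 24 h and 217, 206 and 207 CPM at 48 h. Its 48 h libraries stood far above all others, with a log2 change of 1.26 against control (SE 0.06, adjusted p = 7.81e-12). Socs3, a feedback inhibitor of cytokine receptors, was 0.94 higher (SE 0.07, adjusted p = 2.65e-09) and Stat3, which carries IL-6 family signals, 0.62 higher (SE 0.04, adjusted p = 2.30e-09). The lower genes included Nfyb, a subunit of the Y box factor NF-Y (-0.45, SE 0.06, adjusted p = 1.53e-05), and Ifngr2, a chain of the interferon-γ receptor (-0.20, SE 0.06, adjusted p = 0.00874).

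At 24 h, 4 of the 27 were higher (median 0.01), beside 3.25% of all genes. Socs3 (0.57), Ifnar2, a chain of the type I interferon receptor (0.47), and Nfkb1, an NF-kB subunit (0.26), were among the higher genes. Between 24 h and 48 h, 9 rose and 4 fell (median 0.11), beside 23.7% and 25.4% of all genes. Irf1, an interferon-induced activator of class I, transporter and immunoproteasome genes, rose by 0.57 (SE 0.06, adjusted p = 6.80e-07), and Ifngr1 rose by 0.54 (SE 0.06, adjusted p = 2.67e-07). Nfyb and Ifngr2 fell by 0.51 and 0.37, and Creb1, a CRE-binding factor, by 0.24. Without 24h replicate 2 only 2 fell, and without 48h replicate 3 only 1 of the 3 genes below control at 48 h passed. Of the interferon genes, only Ifng and Ifnb1 were on the list, and they had at most 1 and at most 3 counts in a library.

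**Figure D4:**
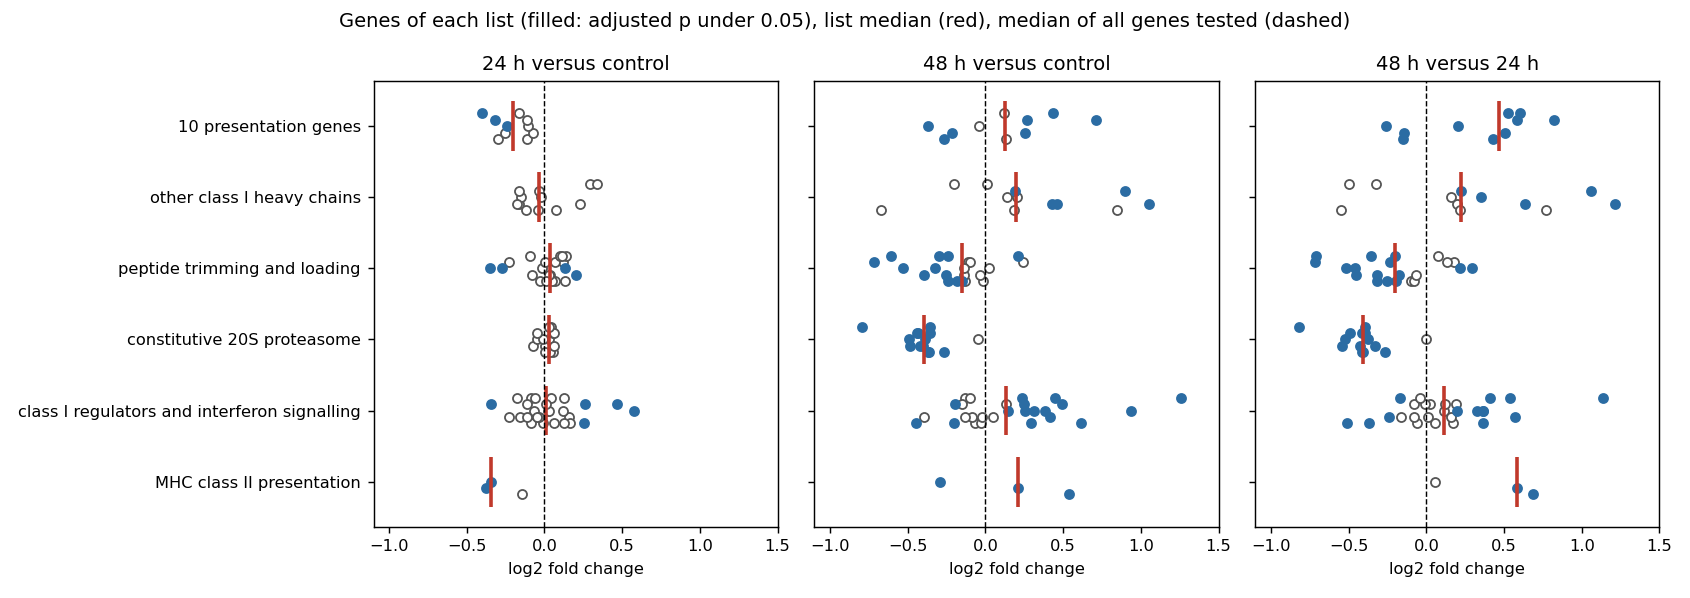
Log2 fold change (x axis) of every tested gene of 6 lists in the 3 comparisons, filled where the adjusted p is under 0.05, with the list median in red and the median of all genes tested as a dashed line. At 48 h the medians against control are 0.13 for the 10 presentation genes, 0.20 for the other class I heavy chains, -0.15 for peptide trimming and loading and -0.40 for the constitutive 20S proteasome.

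Class II presentation, normally a property of professional antigen-presenting cells, was barely present. Of 12 genes, 3 were tested. Ciita, the class II transactivator, had at most 5 counts in a library, Cd74 at most 8, H2-Ab1 at most 4 and H2-Aa 0. H2-DMb1, a chain of the peptide exchanger H2-DM, was at 25.1, 28.5 and 24.4 CPM in control, 20.6, 20.3 and 19.0 CPM at 24 h and 29.5, 29.9 and 30.7 CPM at 48 h. It fell by 0.37 at 24 h (SE 0.08, adjusted p = 0.00768) and was 0.21 above control at 48 h (SE 0.08, adjusted p = 0.0319), in the same order of groups as Tap2. H2-DMb1 lies in the class II region of the same chromosome. Ifi30, a lysosomal thiol reductase, was lower at both times (-0.35, SE 0.08, adjusted p = 0.00859 at 24 h, and -0.29, SE 0.08, adjusted p = 0.00393 at 48 h). Over all genes, 22% were higher and 24.4% lower at 48 h, 3.25% and 2.9% at 24 h, and 23.7% were higher from 24 h to 48 h. Of the 3 class II genes tested, 2 were higher and 1 was lower at 48 h. At 24 h, 0 were higher and 2 lower (0 higher at an unadjusted p under 0.05), and 2 were higher from 24 h to 48 h. The number higher at 48 h was 0 without control replicate 1, control replicate 3 or 48h replicate 1 and 1 without 48h replicate 2 or 3, and the number lower at 24 h was 1 without 24h replicate 1 and 0 without 24h replicate 3.

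Total counts per library ranged from 12250628 to 18515456, and the first principal component (51.7% of the variance) set those of 48 h apart from the rest. The cells expressed osteocyte genes such as Pdpn (212 to 256 CPM as group means) and Gja1 (1498 to 2413 CPM), while the late markers Dmp1 and Sost had at most 6 and 1 counts and Mepe had 0. Of 13 osteocyte and osteoblast markers, 9 were tested. At 48 h, 3 were higher than control, Pdpn and Gja1 among them, and 5 were lower. Over all genes, 22% were higher and 24.4% lower in that comparison. Of 14 chondrocyte markers, 4 were at 0 in all libraries, Acan among them, and Col2a1 had at most 7 counts. Their summed level was 1682 to 1717 CPM in control, 1566 to 1650 CPM at 24 h and 2128 to 2217 CPM at 48 h. Of 5 chondrocyte markers tested, 3 were higher (Prg4, Sox9 and Comp) and 1 was lower (Matn3, -1.25, adjusted p = 0.00155) than control at 48 h, with 1 higher when 48h replicate 1 or 2 was left out. The sum was carried mostly by Prg4, which was 0.38 above control (SE 0.04, adjusted p = 8.64e-08), and the part of these markers in the 48 h results was not tested. Of 14 leukocyte markers, 9 had at most 3 counts in any library and Ptprc had at most 1. Their summed level, mostly Cd14, was 18.8 to 20.7 CPM in control, 24.3 to 26.5 CPM at 24 h and 21.4 to 24.3 CPM at 48 h.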

How the data were processed

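Raw read counts per gene were deposited by the authors as 1 table covering the 9 libraries. The labels and the study's methods state that RNA was purified with TRIzol, that directional libraries were read as 150-base pairs and aligned with HISAT2 to the mouse genome (GRCm39), and that reads were counted with featureCounts, whose version differs between the sources. The methods also name RSEM. The strand setting and the handling of reads with several matches are not given in the sources used here, so counts of overlapping genes and near-identical copies are uncertain.

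The count model was that of edgeR 4.0.16 (limma 3.58.1, R 4.3.3). The filterByExpr filter (minimum count 10) and TMM scaling came first, and the quasi-likelihood model was fitted to the 9 libraries together with no term but group. Benjamini-Hochberg adjustment ran over all 13812 genes, at a threshold of 0.05. CPM are counts scaled to the TMM-adjusted library total, and CPM per kb divide them by the gene length in the table. SE were derived from the fold change and the F statistic. Lists were described by counts and medians. Named genes were all 10 members, the constitutive counterparts Psmb5, Psmb6 and Psmb7, at most 3 called genes per list, comparison and direction with the largest change, a mean of at least 5 CPM and no overlap between libraries, and the 5 genes with the most similar profile. Psmb1, Comp, Matn3, overlapping genes and genes near 0 were named after their values were seen. The members and lists were chosen with earlier results of these data known. Same-numbered libraries did not deviate together (correlations -0.05 to 0.08), so no pairing was used. Replicates differed by more than counting noise (chi-square per degree of freedom 2.32 to 8.83). The alternatives were RLE scaling, library size only, no filter, a replicate block, only the 2 groups compared, each library left out, DESeq2 1.42.0 and a threshold of 0.01. The fit was tested on simulated data for 48 h versus control (5 sets of 200 changed genes, at least 13461 genes fitted). It recovered 45.0% of genes changed 1.25-fold and 74.6% of those changed 1.5-fold, and called 11 unchanged genes per set on average. In the real 48 h comparison 46.4% of genes were called, so the adjusted threshold differs there. The simulated shares therefore do not give the power of that comparison. Ratios were tested by exact permutation with scipy 1.17.1. Protein sequences were not used here. One gene of the regulator list is not reported here.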

Additional observations from a re-analysis of the deposited data

Results flagged for a closer look

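Each of the 10 genes had a different effect at 48 h than at 24 h, by the direct test of 48 h versus 24 h in edgeR, in which 49.1% of all genes passed. The effect at 48 h minus that at 24 h was -0.26 for H2-K1, -0.15 for B2m and -0.14 for H2-D1 on the log2 scale, so these 3 genes went further down. It was 0.20 for Tap1, 0.43 for Psmb8, 0.51 for Psmb9, 0.53 for Psmb10, 0.58 for Tap2, 0.60 for Tapbp and 0.82 for Nlrc5. Both effects are measured against the same control libraries, which cancel in the difference. The 24 h and 48 h libraries also differ by a day of culture, and this cannot be told apart from the time since stimulation.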

How the results depend on the processing

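Over 16 alternatives, 453 of 480 values of single genes kept their direction and their side of the threshold, 20 no longer passed, 7 passed in addition and 0 changed direction. The 480 include values that had not passed to begin with and so could not be lost. They also include fits that left out a library of the group not compared. Calls were lost for H2-D1 (adjusted p up to 0.164) and B2m (up to 0.108) between 48 h and 24 h, for Tap1 (up to 0.0985) and Tap2 (up to 0.0625) between 24 h and control, and for Psmb9 (up to 0.0590) between 48 h and control. The number of the 10 genes lower at 24 h than in control was 3, and 2 to 6 with 1 library left out, where 6 came without control replicate 3. The number lower at 48 h than at 24 h was 3. It was 1 with library size only and 1 at an adjusted p under 0.01, and 1 to 3 with 1 library left out (1 without 24h replicate 2 and 1 without 48h replicate 3). Library size scaling gave H2-D1 an adjusted p of 0.121 and B2m 0.0598 there. With the replicate block, 4 of the 10 genes were higher and 3 lower at 48 h, 3 were lower at 24 h and 7 rose and 3 fell from 24 h to 48 h, so no call of the 10 genes changed. Over all genes the block gave 538 higher and 420 lower genes at 24 h, beside 449 and 400. Without the filter 759 genes were higher at 24 h, and with only the 2 groups compared 336 were higher and 254 lower. With 1 library left out, 295 to 873 were higher and 222 to 602 lower at 24 h. Counts for the lists moved by over 1.5 times only where they were 5 genes or fewer. The numbers do not mark a shared culture or day in the labels. The 9 ratios of proteasome subunits kept their sign with any library left out. They could not do otherwise, since the groups were separate in each comparison, so this is no further check. The cause of these shifts was not tested. With 3 libraries per group, small 24 h differences that did not pass are not shown to be absent.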

Other observations

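The tested protein-coding genes with the profile most like the mean of the 10 genes (Pearson correlation over the 9 libraries of standardized log2 CPM) were Anxa4 (0.984), Lgals3 (0.983), Rarg (0.980), Mgst3 (0.973) and Cib2 (0.971). Lgals3, which encodes galectin-3, was at 1199 ± 91.2 CPM in control, 941 ± 10.9 CPM at 24 h and 1205 ± 36.8 CPM at 48 h (mean ± SD, n = 3). Cib2 was at 52.4 ± 5.84, 33.5 ± 4.32 and 51.1 ± 0.366 CPM. The profile they follow is a dip at 24 h and a return at 48 h. It is the mean over genes of unlike behaviour, since the correlation of 1 member with the mean of the other 9 was 0.89 for Psmb8 and for Psmb10, 0.80 for Tap1 and 0.36 for Nlrc5, but -0.33 for H2-K1, -0.14 for B2m and -0.12 for H2-D1. The libraries share groups and scaling, and the correlations are a description.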
